A study of Mus musculus with 4 samples.

Results

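The chromatin regulators described here are 54 mouse genes for Polycomb, SWI/SNF, DNA methylation and histone-modifying enzymes. They were chosen by gene symbol and not by their values, though with earlier results of these data known. Of them, 5 belong to Polycomb repressive complex 2 (PRC2), 8 to Polycomb repressive complex 1 (PRC1), 12 to the SWI/SNF remodelling complexes and 6 to DNA methylation and demethylation. Another 6 methylate histones, 6 demethylate them, 4 acetylate them and 7 deacetylate them. They are 54 of the 28096 gene identifiers in the tables, and all 54 had reads in every library, with counts from 10 to 4603.

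The data are RNA sequencing of polyadenylated RNA from 4 libraries of a single group, labelled KRasEtv wt. They came from alveolar type II cells, the surfactant-producing epithelium of the mouse lung, sorted for EpCAM and against CD24, CD45, CD31 and Pdpn. The sorted cells were kept in matrigel with BEGM, a bronchial epithelial medium, for 4 days with 100 nM 4OHT, the tamoxifen metabolite that activates CreERT2, and for 1 day after its removal. The design text names 3 genotypes of 4 mice each, and all 3 carry KRaswt/d12 and RosaCreERT2. These are KRaswt/d12;RosaCreERT2 alone, the same with Etv5loxp/loxp, and the same with both Etv4KO/KO and Etv5loxp/loxp. The labels do not say which of them KRasEtv wt is, and other genotypes were not analysed here. RosaCreERT2 is driven from a locus that is active in most cell types and is not restricted to type II cells. The age of the mice is not given in the sources used here. The labels do not tie a library to a single mouse, and the library numbers 1 to 4 only name libraries. With 1 group there is no comparison between conditions, so levels, paralogs and the spread between libraries are described. Any p-value measures only the spread between these libraries, which may be technical.

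Library totals were 12133251, 12987938, 12928901 and 13591876 uniquely aligned reads, and a gene without reads could still hold 3 counts, or 0.221 to 0.247 CPM (counts scaled to library size). Mitochondrial ribosomal RNA took 19.6% to 38.9% of the reads. No library was a copy of another, as the chi-square statistic of each pair of libraries was 39.0 to 113 times its degrees of freedom. All 10 type II markers had a mean of at least 10 nRPKM (size-factor-adjusted reads per kilobase), with Sftpc, a surfactant protein gene, at 10006 ± 3649 (SD, n = 4). The summed level of 6 leukocyte markers was 68.1, 57.9, 25.6 and 16 nRPKM in libraries 1 to 4, with Cd68 the highest. For 5 mesenchymal markers, led by Dcn, it was 28.2, 17.0, 5.09 and 12, and for 6 airway markers, led by Scgb1a1, it was 332, 993, 124 and 246. The 5 endothelial markers, led by Pecam1, summed to 0.120 to 0.751. Library 3 stood apart in having no read of the Y-linked demethylase genes Kdm5d and Uty, which had 237 to 410 reads in each other library.

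Chromatin regulators set how accessible DNA is to transcription. PRC2 methylates histone H3 at lysine 27 and PRC1 ubiquitinates histone H2A, and both hold developmental genes silent. SWI/SNF complexes use ATP to move nucleosomes. DNA methyltransferases add methyl groups to cytosine, which TET enzymes oxidise, and opposing enzymes add or remove acetyl and methyl groups on histones. In lung epithelium, Polycomb proteins restrain differentiation programmes and the p16 locus, and SWI/SNF subunits are often mutated in lung cancer.

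Most of these genes were expressed at a moderate level. Of the 54, 50 (92.6%) had a mean of at least 1 nRPKM, a level reached by 42.4% of all genes in the tables, and 49 were at or above 1 in all 4 libraries, as were 38.8% of all genes. A mean of at least 10 was reached by 18 members, or 33.3%, beside 13.9% of all genes and 32.8% of the 11904 genes with a mean of at least 1. Their median of 6.41 nRPKM lay close to the median of those 11904 genes, 5.82. In bulk RNA, fewer cells of a type and less RNA per cell cannot be told apart. The highest levels were those of the deacetylase gene Hdac2 at 26.7 ± 5.14 nRPKM and the SWI/SNF ATPase gene Smarca4 at 23.7 ± 3.93. The first rank of Hdac2 depends on the gene length used, as with the longest GENCODE transcript it was at 16.5 ± 3.18 and ranked 8, with Smarca4 first at 23.8 ± 3.94. The 4 members below 1 were Tet1, Dnmt3b, Kdm2b and Cbx8.

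**Figure D1:**
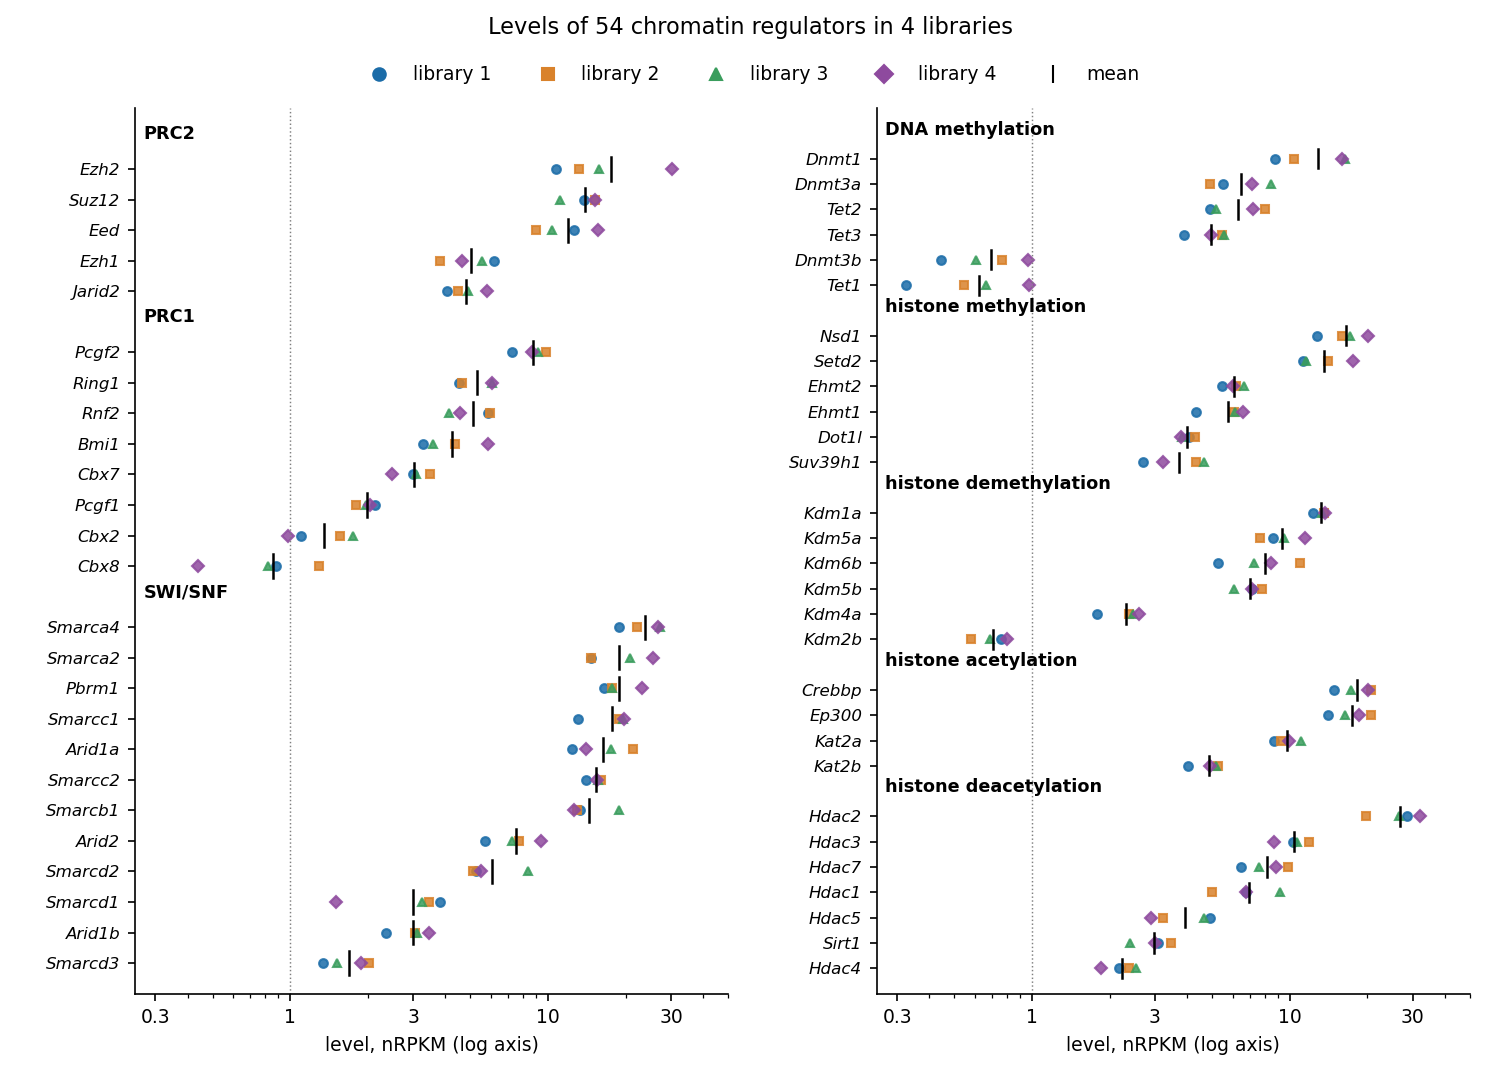
Level of each of the 54 genes (nRPKM, log axis) in libraries 1 to 4 by class, with the mean as a vertical bar and a dotted line at 1 nRPKM. Tet1, Dnmt3b, Kdm2b and Cbx8 have their means left of the line, and Ezh2 has its library 4 value of 30.2 far right of the other 3.

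In PRC2, the main catalytic subunit gene Ezh2 was at 10.7, 13.2, 15.8 and 30.2 nRPKM in libraries 1 to 4. Library 4 held 2.81 times the level of library 1, the widest range among the 50 members with a mean of at least 1. Ezh1, the catalytic paralog that is usual in resting cells, stood at 6.18, 3.80, 5.56 and 4.64. It was highest in library 1, where Ezh2 was lowest, and the ranges of the 2 genes did not overlap. Ezh2 exceeded Ezh1 in all 4 libraries, with a ratio from 1.74 to 6.51 and a difference of 1.52 ± 0.73 on the log2(nRPKM + 1) scale. Ezh2 thus made up 63.5%, 77.6%, 74.0% and 86.7% of the summed level of the pair. Suz12, a core subunit that stabilises the enzyme, was at 13.8, 15.2, 11.2 and 15.3 nRPKM. It was above Ezh2 in libraries 1 and 2, and the higher mean of Ezh2, 17.5 ± 8.73 beside 13.9 ± 1.92, rested on library 4, without which the means were 13.2 and 13.4. Eed, the core subunit that binds trimethylated lysine 27, was at 11.9 ± 2.89 nRPKM. Jarid2, which helps PRC2 reach chromatin, was at 4.80 ± 0.75. Eed shares 10.5% of the 50-base words of its longest protein-coding transcript with E230029C05Rik, a gene annotated as antisense, so its level is uncertain. Words were matched on either strand. They can thus be shared with an overlapping gene as well as with a copy elsewhere, whose reads do not align uniquely and were not counted. These cases were not separated. Of the 54 members, 8 shared over 10% of their words and 35 under 1%.

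The promoters of the 2 catalytic genes are shown because, on the log2(nRPKM + 1) scale, their difference varied more between libraries (SD 0.73) than that of any other of the 26 paralog pairs. Both are 250 bases before to 20 after the RefSeq start in GRCm38.p6, minus strand, written 5′ to 3′. The Ezh2 record lies at chr6:47595011-47595280 and that of Ezh1 at chr11:101226444-101226713. Capitals mark a match to TTTCCCGC or TTTGGCGC, letters of binding sites of E2F factors, which drive genes of DNA replication.
Ezh2: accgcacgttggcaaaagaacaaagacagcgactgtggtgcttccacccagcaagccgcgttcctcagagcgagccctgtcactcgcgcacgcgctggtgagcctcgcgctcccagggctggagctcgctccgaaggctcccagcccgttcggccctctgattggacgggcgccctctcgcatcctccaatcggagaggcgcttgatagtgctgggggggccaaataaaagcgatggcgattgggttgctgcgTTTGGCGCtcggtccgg
Ezh1: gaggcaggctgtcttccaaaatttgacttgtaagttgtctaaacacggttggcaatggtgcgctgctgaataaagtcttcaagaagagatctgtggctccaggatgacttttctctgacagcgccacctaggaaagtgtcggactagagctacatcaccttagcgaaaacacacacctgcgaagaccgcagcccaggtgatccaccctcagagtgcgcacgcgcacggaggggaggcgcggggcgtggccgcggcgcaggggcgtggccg
The match in Ezh2 began at base 4 from the start. Promoter records of 300 bases (250 before and 50 after the start) were found for 46 members. The letters were searched on both strands, as TTTCCCGC, TTTGGCGC and their complements GCGGGAAA and GCGCCAAA, of which the last can overlap TTTGGCGC, and a record was counted once. They occurred in 3 of the 46 (6.52%), in 3.42% of expressed protein-coding genes and in 2.09% of all protein-coding genes. The other 2 members were Suz12 and Smarcd1, with the match beginning at -219 and -131 from the start. The search was widened from the bases before the start to the whole record after the Ezh2 sequence had been seen, and Ezh2 is counted only through that change. A ratio of observed to expected CpG of at least 0.6 was found in 42 of the 46 records (91.3%), beside 76.4% of expressed and 48.3% of all protein-coding genes. The median ratio was 0.871 for the members, 0.789 for expressed genes and 0.576 for all. A match of letters is a description and not a binding site.

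Around PRC2, 7 of 8 accessory and cofactor genes had a mean of at least 1 nRPKM. The highest was Rbbp7, a histone-binding subunit that PRC2 shares with deacetylase complexes, at 33.8 ± 1.54, with 15.1% of its words shared. The lowest was Ezhip, an inhibitor of PRC2, with a single read in library 1 and none in the others. A list of 14 PRC2 target genes was chosen as silenced in epithelium, so their low levels follow from that choice. A mean of at least 1 nRPKM was reached by 42.4% of all genes. Of the 14, 13 had a mean below 1 nRPKM and 5, Hoxd10 among them, had no read in any library. The exception was Cdkn2b, a cyclin-dependent kinase inhibitor gene, at 8.28, 7.60, 6.14 and 5.81 nRPKM.

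PRC1 genes had a median of 3.63 nRPKM, beside 11.9 for PRC2, with no PRC1 member reaching a mean of 10 nRPKM. These medians cover the members only. For 14 further PRC1 genes the median was 5.45 nRPKM, with 3 at a mean of at least 10. For the 8 PRC2 accessory and cofactor genes it was 3.79 nRPKM, with 1 at a mean of at least 10. The E3 ligase genes Rnf2 and Ring1 were close, at 5.12 ± 0.92 and 5.32 ± 0.86. Rnf2 stood at 5.83, 5.97, 4.13 and 4.56 nRPKM, and Ring1 at 4.51, 4.65, 6.06 and 6.06. Rnf2 was the higher in libraries 1 and 2 and Ring1 in libraries 3 and 4, and the difference had p = 0.75 by a two-sided exact sign-flip permutation test. Of the PCGF subunits, which define the variant of PRC1, the members are Pcgf2, Bmi1 and Pcgf1, and Pcgf2 took 58.3% ± 4.46 of the sum of these 3. Its level was 7.23, 9.81, 9.11 and 8.70 nRPKM, above the 3.26, 4.34, 3.59 and 5.84 of Bmi1, a PCGF protein that restrains p16, in every library. Pcgf1, of a variant complex, was at 1.99 ± 0.14 nRPKM. The PCGF genes outside the members, named after their values were seen, were Pcgf3 at 9.03 ± 0.89, Pcgf6 at 5.72 ± 0.62 and Pcgf5 at 3.68 ± 0.81, so Pcgf3 had a higher mean than Pcgf2. Of the CBX readers of methylated lysine 27, Cbx7 was at 3.01 ± 0.41, Cbx2 at 1.35 ± 0.37 and Cbx8 at 0.859 ± 0.349 nRPKM. The order Cbx7, Cbx2, Cbx8 held in all 4 libraries, on 10 to 32 reads for Cbx8. Pcgf1 and Bmi1 share 31.3% and 18.5% of their 50-base words with other genes, and their levels are uncertain. Of 14 further PRC1 genes, 12 had a mean of at least 1 nRPKM, from Phc3, a Polyhomeotic scaffold gene, at 11.8 ± 1.90 down to Auts2, a subunit of a variant complex, at 0.334 ± 0.152.

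Among the members, SWI/SNF genes had the highest median level of the 8 classes, 14.9 nRPKM. That rank depends on which genes are members, as 14 further SWI/SNF genes had a median of 3.97 nRPKM. Of the 12 SWI/SNF members, 7 had a mean of at least 10 nRPKM and all 12 were at or above 1 in every library. Both ATPase genes were expressed. Smarca4 (Brg1) stood at 18.9, 22.1, 27.2 and 26.6 nRPKM and Smarca2 (Brm) at 14.7, 14.6, 20.7 and 25.4. Smarca4 was the higher in each library, by 0.34 ± 0.20 on the log2(nRPKM + 1) scale, and took 51.2% to 60.1% of their sum. Of the core scaffold genes, Smarcc1 was at 17.7 ± 3.17, Smarcc2 at 15.3 ± 0.86 and Smarcb1, a core subunit lost in rhabdoid tumours, at 14.4 ± 2.96 nRPKM. Smarca4 was above all 3 in every library. Smarcc2 had nearly the same level in the 4 libraries, with a coefficient of variation of 5.59%. Smarcb1 was 18.8 nRPKM in library 3 and 12.6 to 13.3 in the others.

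The subunits that set the SWI/SNF variant differed more. Arid1a was at 12.4, 21.3, 17.5 and 14 nRPKM, and Arid1b, its alternative in the canonical BAF complex, at 2.36, 3.03, 3.10 and 3.45. The ranges did not overlap, and Arid1a exceeded Arid1b 4.05 to 7.02 times, taking 84.2% ± 3.03 of the sum. Arid2 and Pbrm1, which define the PBAF complex, were at 7.49 ± 1.52 and 18.8 ± 2.94. Among the SMARCD paralogs, which link the core to transcription factors, Smarcd2 led at 6.05 ± 1.56, with 56.1% ± 7.80 of their sum. Smarcd1 was low in library 4, at 3.81, 3.45, 3.26 and 1.5 nRPKM. Smarcd3 was at 1.69 ± 0.32, and it shares 24.6% of its 50-base words with other genes. Of 14 further SWI/SNF genes, 10 had a mean of at least 1 nRPKM, led by the bromodomain gene Brd7 at 52.8 ± 5.71, while the neuronal subunit gene Actl6b had no read in any library.

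In the DNA methylation group, Dnmt1, which copies methylation after replication, was at 8.79, 10.4, 16.4 and 16 nRPKM. Libraries 3 and 4 lay above libraries 1 and 2. Of the de novo methyltransferase genes, Dnmt3a was at 5.49, 4.91, 8.45 and 7.13 and Dnmt3b at 0.443, 0.769, 0.608 and 0.965 nRPKM. Dnmt3a was 6.38 to 13.9 times higher and took 90.1% ± 3.34 of their sum. Dnmt3b shares 11.5% of its words with its copy Dnmt3c, so its level is uncertain. Of the TET genes, Tet2 and Tet3 were at 6.32 ± 1.52 and 4.96 ± 0.77 nRPKM and Tet1 at 0.324, 0.544, 0.665 and 0.972. Tet1 had its lowest level in library 1 and its highest in library 4, on 93 to 223 reads, and took 5.17% ± 1.80 of the sum of the 3 genes. Tet2 exceeded Tet3 in 3 of 4 libraries. Among 10 genes for methylation maintenance, repair and readers, 8 had a mean of at least 1 nRPKM, from Mbd2, a methyl-CpG reader, at 22.7 ± 2.61 down to Dnmt3l, a germline cofactor, with 1 read in each of libraries 1 and 2.

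The histone methyltransferase genes were led by Nsd1, which dimethylates H3 lysine 36, at 12.7, 16, 17.2 and 20.1 nRPKM. Setd2, which trimethylates the same residue, followed at 13.6 ± 2.96. The partners of the H3 lysine 9 dimethylase, Ehmt1 (GLP) and Ehmt2 (G9a), were at 5.77 ± 1.00 and 6.07 ± 0.50, and neither was the higher in all 4 libraries. Suv39h1, an H3 lysine 9 trimethylase, was at 3.73 ± 0.92 with 20.5% of its words shared, and Dot1l, the H3 lysine 79 methylase, at 3.98 ± 0.23. All 23 further methyltransferase genes had a mean of at least 1 nRPKM. They ran from Kmt5a, the H4 lysine 20 monomethylase, at 49.6 ± 6.88 to Prdm9, known for meiosis, at 1.19 ± 0.27.

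Kdm1a (LSD1), which removes H3 lysine 4 mono- and dimethylation, was the steadiest member, at 12.3, 13.6, 13.4 and 13.7 nRPKM with a coefficient of variation of 4.76%. Kdm5a and Kdm5b, which remove H3 lysine 4 trimethylation, were at 9.29 ± 1.60 and 7.03 ± 0.71. Kdm6b, which removes the PRC2 mark, was at 5.25, 11.0, 7.29 and 8.46 nRPKM and thus highest in library 2. Kdm4a, which acts on H3 lysines 9 and 36, was at 2.31 ± 0.37. Kdm2b, which brings a variant PRC1 to CpG islands, was at 0.706 ± 0.097, with 23.8% of its words shared. Of 17 further demethylase genes, 16 had a mean of at least 1, from Jmjd1c at 24.3 ± 4.27 down to Kdm4d, with 1 to 3 reads in a library.

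The X-linked demethylase genes Kdm5c and Kdm6a have Y-linked copies, Kdm5d and Uty. Kdm5c stood at 6.59, 5.51, 9.68 and 6.08 nRPKM and Kdm5d at 2.7, 2.44, 0 and 4.03. Kdm6a stood at 6.16, 9.09, 9.98 and 8.31 and Uty at 3.85, 3.49, 0 and 3.51. Library 3, without reads of the Y-linked genes, had the highest level of both X-linked ones. The labels do not give the sex of the mice, which may have differed between libraries, and its part in these values and in those of Xist and Tsix was not tested.

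Among the histone acetyltransferase genes, Ep300 and Crebbp (p300 and CBP, paralogous coactivators) were nearly equal in the deposited nRPKM. Ep300 was at 14, 20.7, 16.4 and 18.6 nRPKM and Crebbp at 14.8, 20.7, 17.3 and 20.1. Both ranked the libraries alike, and Ep300 took 48.8% ± 0.85 of their sum, the smallest spread of any paralog share. Kat2a (GCN5) and Kat2b (PCAF), of the SAGA and ATAC complexes, were at 9.73 ± 1.04 and 4.84 ± 0.57, with Kat2a 1.76 to 2.16 times higher. All 9 further acetyltransferase genes had a mean of at least 1 nRPKM, from Hat1 at 28.8 ± 5.54 to Kat6b at 2.56 ± 0.36.

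The deacetylase genes were led by Hdac2, a catalytic subunit of the Sin3, NuRD and CoREST complexes, at 28.4, 19.8, 26.5 and 32 nRPKM. Its paralog Hdac1, of the same complexes, was at 6.74, 5.0, 9.18 and 6.79. Hdac3, of the NCoR complex, was at 10.4 ± 1.31 nRPKM. Of the class IIa genes, which shuttle between nucleus and cytoplasm, Hdac7 was at 8.18 ± 1.46, Hdac5 at 3.92 ± 1.00 and Hdac4 at 2.24 ± 0.30, and that order held in every library. Sirt1, an NAD-dependent deacetylase, was at 2.99 ± 0.44. Of 11 further deacetylase and sirtuin genes, 10 had a mean of at least 1 nRPKM, led by Sirt2 at 24.5 ± 3.69 and ending with Hdac9 at 0.244 ± 0.131. Of 13 deacetylase partners, 12 did, from Gatad2b, of NuRD, at 28.6 ± 3.88 down to Rcor2, of CoREST, at 0.193 ± 0.103.

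The lead of Hdac2 over Hdac1 is uncertain, because only uniquely aligned reads were counted and 56.4% of the 50-base words of Hdac1 also occur in a processed pseudogene, Gm10093. Gm10093 itself was not analysed here. In GRCm38, Hdac1 lies at chr4:129516104-129542713 on the minus strand and Gm10093 at chr17:78491582-78493025 on the plus strand. Of 1444 aligned bases, 1435 (99.4%) were identical, and 9 differed. The stretch below, bases 241 to 360 of the Hdac1 coding sequence, shows how little separates them, with the only differing base in capitals.
Hdac1: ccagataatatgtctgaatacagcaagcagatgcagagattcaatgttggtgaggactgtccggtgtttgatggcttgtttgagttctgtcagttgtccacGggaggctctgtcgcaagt
Gm10093: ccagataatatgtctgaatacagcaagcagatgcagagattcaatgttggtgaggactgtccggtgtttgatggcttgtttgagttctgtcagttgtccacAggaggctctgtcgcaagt
The gene length also bears on this pair. The length that the deposited values imply for Hdac2 is shorter than that of its longest GENCODE transcript by a factor of 1.62, and with the GENCODE length Hdac2 was at 16.5 ± 3.18 nRPKM and its share of the pair was 71.1% in place of 79.3%. The same factor was 2.56 for Cbx8, 2.04 for Hdac4, 1.44 for Crebbp and 1.38 for Kdm5b.

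Across 26 paralog pairs, 19 had the same member higher in all 4 libraries, and in 10 of these the mean difference was at least 1 on the log2(nRPKM + 1) scale. The largest differences were those of Tet2 over Tet1 (2.16 ± 0.28), Dnmt3a over Dnmt3b (2.13 ± 0.34) and Arid1a over Arid1b (2.10 ± 0.30). In the deposited nRPKM, the 7 pairs without a fixed order were Rnf2 and Ring1, Smarcc1 and Smarcc2, Smarcd1 and Smarcd3, Tet2 and Tet3, Kdm5a and Kdm5b, Ep300 and Crebbp, and Ehmt1 and Ehmt2. The count depends on the gene length used. In place of 19 pairs with a fixed order there were 24 in CPM, without length correction, and 22 with GENCODE lengths. In a two-sided exact permutation test that flips signs over libraries, each of the 19 pairs had p = 0.13, the smallest p that 4 libraries allow, and 0.171 after Benjamini-Hochberg adjustment over the 26 pairs. No such exact test of 4 libraries can pass a threshold of 0.05, so these differences are given by size and by the number of libraries.

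**Figure D2:**
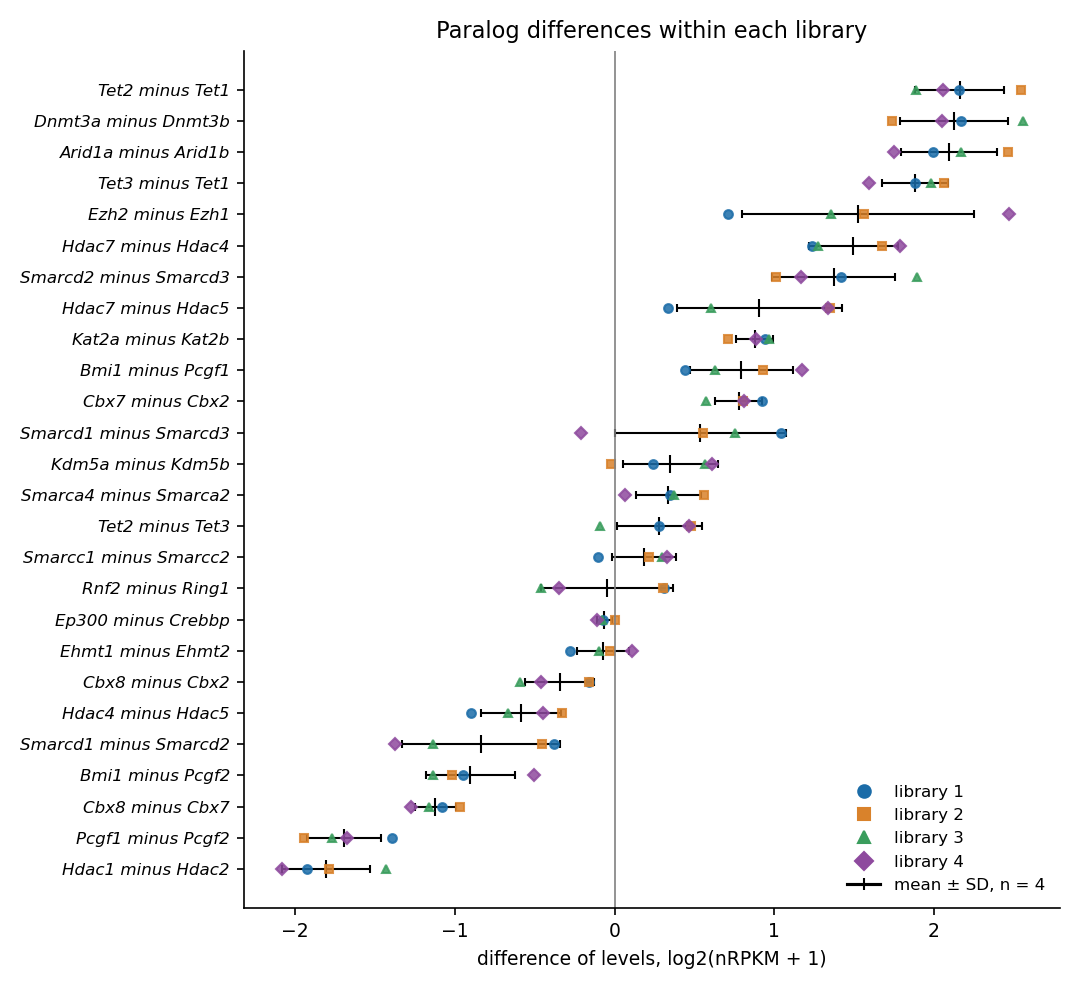
Difference of the log2(nRPKM + 1) levels of 26 paralog pairs (first gene minus second) in libraries 1 to 4, with mean and SD (n = 4). The 19 pairs whose points all lie on one side of 0 run from Tet2 minus Tet1 at 2.16 to Hdac1 minus Hdac2 at -1.81, and Ezh2 minus Ezh1 has the widest spread.

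The members varied about as much between libraries as other genes. Their median coefficient of variation was 17.9%, beside 20.2% for the 11904 genes with a mean of at least 1 nRPKM. The highest level was a median of 1.49 times the lowest over the 50 members with a mean of at least 1, with 26 below 1.5 and 3 above 2 (Ezh2, Smarcd1 and Kdm6b). In edgeR's quasi-likelihood fit, which compares the dispersion of a gene with that of genes of like abundance, 2 of 13156 genes (0.0152%) passed a Benjamini-Hochberg adjusted p of 0.05, Xist and Tsix. None of the 53 members tested did, and Cbx8 was not tested for lack of reads. Kdm5d and Uty, which are not members and had no read in library 3, were left out of this fit by its filter on low counts. Without adjustment, 5.13% of all genes and 1 of the 53 members had p under 0.05. That member was Ezh2, with unadjusted p = 0.0169 and adjusted p = 0.806 by edgeR, and adjusted p from 0.382 to 0.996 over 6 alternative fits. No member was a dispersion outlier in DESeq2. A member that passed no test is not shown to be constant, since the common coefficient of biological variation was 24.9%.

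**Figure D3:**
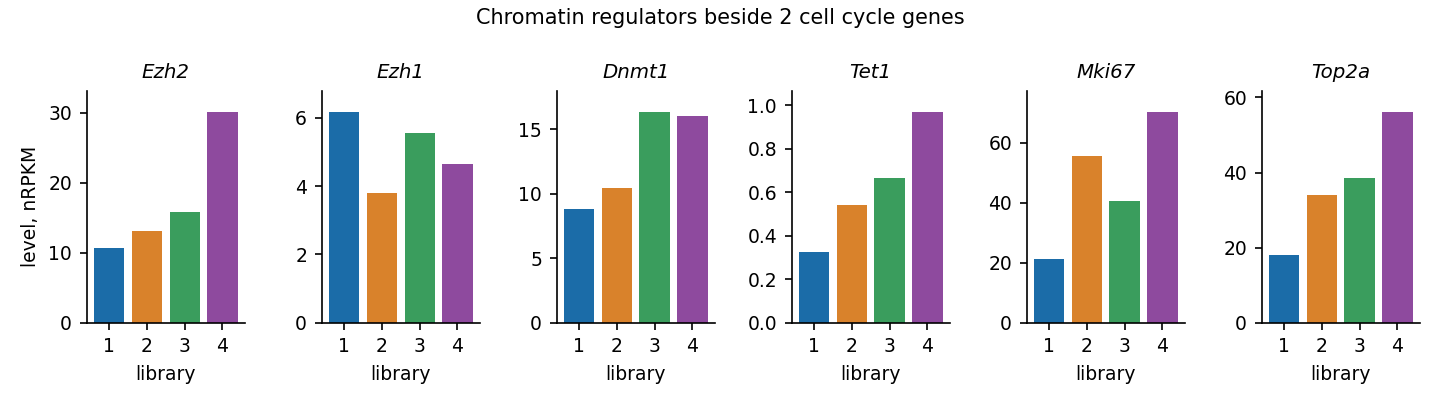
Level (nRPKM, linear axis from 0) of 4 chromatin regulators and of the cell cycle genes Mki67 and Top2a in libraries 1 to 4, 1 bar per library. Ezh2 and Tet1 rank the libraries as Top2a does, from 1 to 4, while Ezh1 is highest in library 1.

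Cell cycle genes also differed between the libraries. Mki67, a marker of cycling cells, was at 21.3, 55.7, 40.6 and 70.4 nRPKM, and Top2a, a topoisomerase of mitotic chromosomes, at 17.9, 34.1, 38.6 and 56.2. Both were lowest in library 1 and highest in library 4. The order of libraries in Top2a, with 1 lowest, then 2, 3 and 4, was shared by 8 of the 50 members (16%) and by 6.3% of the 11904 genes. These 8 were Ezh2, Jarid2, Ring1, Smarcc1, Arid1b, Nsd1, Ehmt1 and Kdm4a. Mki67 itself has library 3 below library 2, and how many members share its order was not counted. The correlation of level with transcript length, given below, also rose from library 1 to library 4, and the members had long transcripts. The part of cell cycling and of transcript length in this order was not tested.

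Library 1 held the lowest level of 29 of the 50 members (58%), beside 26.8% of all genes with a mean of at least 1 nRPKM. It held the highest level of 4 members (8%), beside 22.5% of all genes. Libraries 2, 3 and 4 were lowest for 9, 4 and 8 members, beside 26.6%, 18.4% and 28.1% of all genes. They were highest for 16, 12 and 18 members, beside 25.4%, 24.5% and 27.6%. By class, library 1 was lowest for all 4 acetyltransferase genes, 5 of 6 histone methyltransferase genes and 8 of 12 SWI/SNF genes. It was lowest for 3 of 4 DNA methylation, 3 of 5 demethylase, 3 of 7 PRC1 and 2 of 5 PRC2 genes. Among the deacetylase genes it was lowest for 1 of 7, Hdac7. The shifts were small, as the median deviation of the members from the mean of the libraries, on the log2(nRPKM + 1) scale, was -0.19, 0.06, 0.05 and 0.10 in libraries 1 to 4. For all genes it was -0.01 in library 1. Of 119 other chromatin genes with a mean of at least 1 nRPKM, 55 (46.2%) were lowest in library 1 and 51 (42.9%) highest in library 4.

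**Figure D4:**
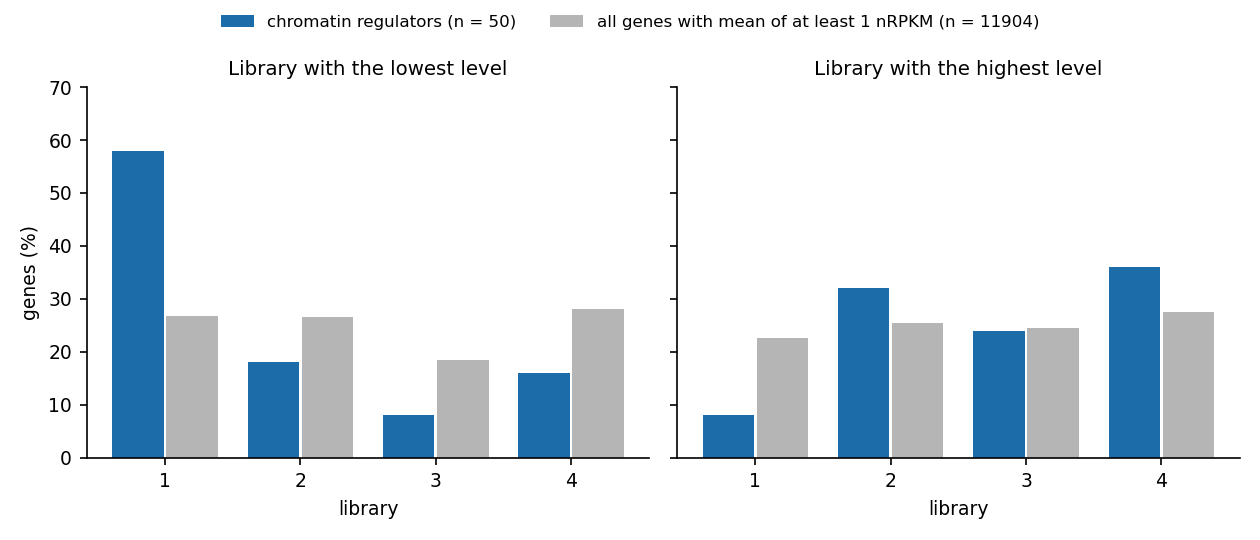
Percent of genes with their lowest (left) and highest (right) level in each of libraries 1 to 4, for the 50 chromatin regulators and for all 11904 genes with a mean of at least 1 nRPKM. Library 1 holds the lowest level of 58% of the regulators and of 26.8% of all genes.

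Other values moved with library 1. It had the highest leukocyte and mesenchymal marker sums and the lowest levels of Sftpc, Mki67 and Top2a, and their part in the result was not tested. Level also moved with transcript length and GC content. Over the 10304 genes with both, Spearman's rank correlation of a gene's deviation with its length was -0.30, -0.13, -0.12 and 0.45 in libraries 1 to 4, and with its GC content it was 0.01, 0.18, 0.40 and -0.47. The points of each correlation share a library. The members had long transcripts, with a median of 4607.5 bases beside 3150.5 for all genes. In the quartile of genes with the longest transcripts, 40.8% were lowest in library 1, as were 16 of 23 members. With the trend on length and GC content removed, a choice made after the data were seen, library 1 was lowest for 24 of 50 members (48%) and for 26.7% of all genes, and the members' median deviation there was -0.12.

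**Figure D5:**
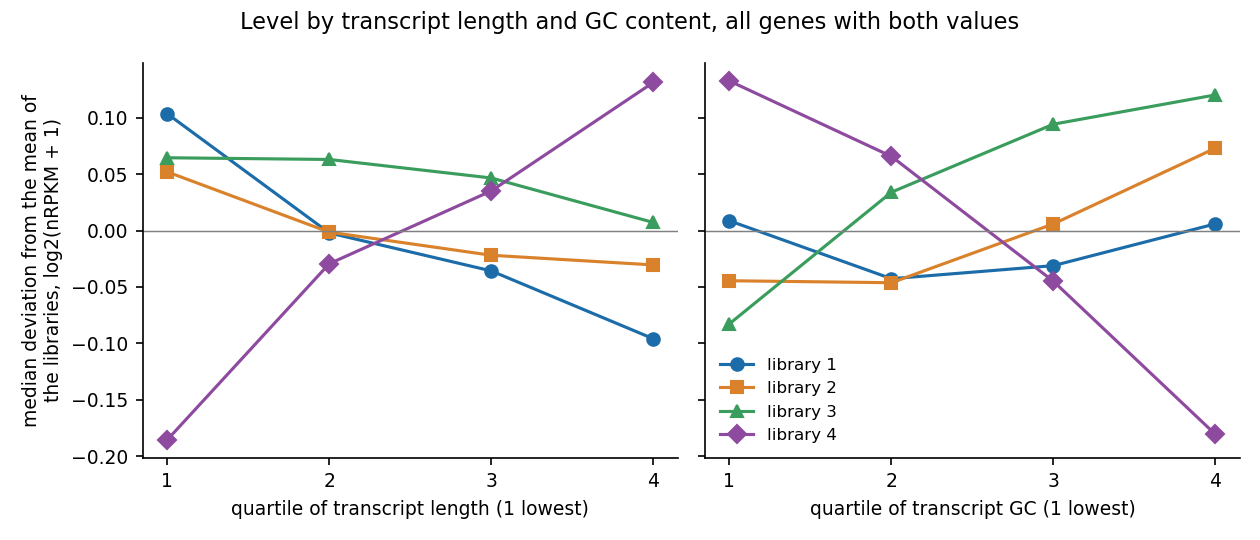
Median deviation of a gene's log2(nRPKM + 1) from the mean of the 4 libraries, by quartile of transcript length (left) and of transcript GC content (right), for 10304 genes. From the shortest to the longest quartile the median moves from 0.10 to -0.10 in library 1 and from -0.19 to 0.13 in library 4.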

How the data were processed

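Per the file headers, the authors deposited for each library a count of uniquely aligned reads per gene and a size-factor-adjusted RPKM (nRPKM). Per the submitters' processing notes, GSNAP and mm9 were used. The sources used here do not give versions, annotation, strand use or filters. Without strand, overlapping genes cannot be told apart. Symbols were matched by Entrez identifier to a RefSeq GRCm38.p6 gene table (25035 of 28096 identifiers), used for names only. Promoters are RefSeq records of GRCm38.p6, and transcripts are GENCODE M21 (GRCm38).

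The members and lists were chosen with earlier results of these data known. All members, the highest and lowest gene of each companion list and of the markers the highest, the X and Y linked pairs, Mki67, Top2a and genes called for spread are named by rule. Others were named after their values were seen.

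Levels are the deposited nRPKM, with log2(nRPKM + 1) for differences, which understates those of low genes. Spread was tested on the deposited counts with edgeR 4.0.16 in R 4.3.3 (TMM, filterByExpr, intercept only), checked on simulated data. Alternatives used DESeq2 1.42.0, other scalings, other thresholds and libraries left out. Floors cover counting error only. Sequences were handled with Python 3.11.15.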

Additional observations from a re-analysis of the deposited data

Results flagged for a closer look

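In each of the genes below, 1 of the 4 libraries lay far from the other 3, measured as the gap to the nearest library over the whole range. Chance flags about 1 in 20 genes, and 710 of 11904 genes (5.96%) were so placed, beside 3 of the 54 chromatin regulators (5.56%).

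Smarcb1 had a ratio of 0.888, with library 3 at 18.8 nRPKM and the others at 12.6 to 13.3. Smarcd2 had a ratio of 0.887, also through library 3, at 8.37 beside 5.10 to 5.47 nRPKM. Smarcc1 had a ratio of 0.862 through library 1, at 13.0 beside 18.8 to 19.7 nRPKM.

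Uty, a Y-linked demethylase gene, had a ratio of 0.907 because library 3 had no read of it, while the others were at 3.49 to 3.85 nRPKM. Ezhip had a ratio of 1 from a single read in library 1.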

How the results depend on the processing

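No paired analysis was possible because the libraries form a single group. The count of genes called for spread was 2. It was 66 without the filter on low counts, 71 dispersion outliers by DESeq2 and 0 to 6 with 1 library left out (6 without library 1, 0 without library 2 or 3, 2 without library 4). No member was among them in any of these fits. The count without the filter includes genes with fewer reads. At a threshold of 5 nRPKM, 28 members were expressed in all 4 libraries, and not 49. Without length correction (CPM), the share of Arid1a was 79.4% and that of Dnmt3a 95.4%, and with GENCODE lengths that of Hdac2 was 71.1%. Of 182 alternative pair differences, 6 changed direction, all in 3 pairs without a fixed order. In CPM, Rnf2 minus Ring1 was 0.49, Ehmt1 minus Ehmt2 0.23 and Ep300 minus Crebbp 0.15 on the log2 scale. Ep300 minus Crebbp was 0.31 with GENCODE lengths, and Rnf2 minus Ring1 ranged from -0.17 to 0.09 with 1 library left out, above 0 without library 3 (0.089) or library 4 (0.051). The cause was not tested. The other 51 alternatives of the main results kept their direction and side of the threshold. Genes below 1 nRPKM rest on few reads, and 4 libraries limit every p-value.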

Other observations

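Other chromatin genes were described only by counts. Among 13 other remodelling ATPase genes, 12 had a mean of at least 1 nRPKM. The highest was Chd4, the ATPase of the NuRD complex, at 21, 18.6, 31.7 and 40.3 nRPKM, lower in libraries 1 and 2 than in libraries 3 and 4. The lowest was Smarca1, an ISWI ATPase gene, at 0.151 ± 0.049 nRPKM (SD, n = 4).

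All 13 genes of chromatin assembly and replication had a mean of at least 1 nRPKM, from Mki67 down to Cdca7, an adaptor of the remodeller HELLS, at 2.25 ± 0.55. Library 1 was the lowest for 10 of the 13 (76.9%), beside 26.8% of all genes with a mean of at least 1 nRPKM. The 13 include the cell cycle genes Mki67 and Top2a, so this count is not separate from their order of libraries. Their summed level was 125, 213, 218 and 267 nRPKM in libraries 1 to 4.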
